A study of Mus musculus with 4 samples.

Results

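The genes described here are 10 classical targets of the glucocorticoid receptor (GR), picked by name from the 22252 genes quantified in mouse gastrocnemius muscle: *Fkbp5*, *Tsc22d3*, *Zbtb16*, *Klf9*, *Sgk1*, *Pik3r1*, *Errfi1*, *Cdkn1a*, *Mt1* and *Mt2*. All 10 were found, and all 10 passed the minimum level of 1 CPM (counts scaled to a common library size; mean of the 4 libraries), as did 12552 genes in all. RNA-seq was done on the gastrocnemius, a calf muscle rich in fast fibres, of 7-week-old male C57BL/6J mice in 4 groups: lean GRf/f, lean GRmKO, *ob/ob* GRf/f and *ob/ob* GRmKO. All 4 groups were homozygous for a floxed exon 3 of *Nr3c1*, the GR gene, which encodes the DNA-binding domain. GRmKO mice also carried Acta1-Cre, which recombines the floxed exon in myofibres, so vascular, connective tissue, fat and immune cells of the same muscle kept the receptor. *ob/ob* mice lack functional leptin and become obese, and no corticosterone was given to any of these groups. Each group was 1 library of pooled RNA from 3 mice, so there were no replicates and no comparison could be tested against the spread between mice. The intervals given here are 95% intervals of counting error only, and a difference is called beyond counting error where its interval leaves out 0.

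Glucocorticoids bind GR in the cytoplasm, where chaperones hold it, and the receptor then enters the nucleus and binds glucocorticoid response elements (GREs), inverted repeats spaced by a few bases. In muscle, this program restrains insulin and growth signalling and promotes protein breakdown. Several of its best-known targets feed back on the receptor or limit inflammation, and many of them also respond to other inputs such as metals, the p53 pathway, insulin or the circadian clock.

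The response element itself was visible near the start of only some of these genes. Promoter windows from RefSeq (GRCm38.p6), reaching from 250 bases before to 50 bases after a start site, were matched for 9 of the 10 genes, in 19 windows, and *Zbtb16* was not matched. The full palindrome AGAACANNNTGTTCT occurred in 3 of 32851 windows (0.00913%), and 1 of these windows belonged to *Sgk1*. A looser form, GNACANNNTGTNC, was present in 0.475% of all windows, among them that same *Sgk1* window, where it lies inside the full palindrome, and the *Mt1* window. The metal response element core, TGCGCNC or TGCACNC, was searched for the metallothioneins and occurred in 25.7% of all windows, with 3 matches in the *Mt1* window and 4 in the *Mt2* window. It was also found once in a *Pik3r1* and once in an *Sgk1* window, so 4 of the 19 windows held it, near the share of all windows. Both strands were searched throughout. The sequences below show the *Sgk1* and *Mt1* elements and 1 of the *Mt2* metal elements, followed by the bases upstream of *Fkbp5*, the gene with the widest genotype difference, in which none of these motifs was found. Capitals mark the match.
*Sgk1* GRE (chr10:21993686-21993730, plus strand): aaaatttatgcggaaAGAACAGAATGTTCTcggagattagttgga
*Mt1* loose GRE (chr8:94178980-94179022, plus strand): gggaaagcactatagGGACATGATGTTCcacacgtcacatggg
*Mt2* metal element (chr8:94172475-94172511, plus strand): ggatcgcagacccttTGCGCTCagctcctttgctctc
*Fkbp5* upstream (chr17:28486150-28486399, minus strand): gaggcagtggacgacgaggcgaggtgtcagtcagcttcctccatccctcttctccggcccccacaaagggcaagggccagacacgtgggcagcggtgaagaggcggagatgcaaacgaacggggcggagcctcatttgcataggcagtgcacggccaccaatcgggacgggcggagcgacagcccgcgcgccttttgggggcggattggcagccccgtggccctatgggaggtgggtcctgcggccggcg
Positions are on GRCm38, here and for the genes below. The *Sgk1* palindrome lies within the annotated span of the gene, outside annotated UTRs, and starts at position -965 relative to the start of the *Sgk1* transcript that the files list, and at -189 relative to a more upstream start site in RefSeq. The *Mt1* element starts at position -87 relative to the listed start. These matches are a description of letters within short windows. Many elements bound by GR lie in introns or far from the start, as is known for *Fkbp5*, and were not searched.

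The libraries held between 19897754 and 20959781 expected counts, and levels are given in CPM after scaling by the trimmed mean of M values (TMM). *Nr3c1* itself, counted over the whole gene and not over the deleted exon alone, was at 120 in lean GRf/f, 62.3 in lean GRmKO, 106 in *ob/ob* GRf/f and 41.9 in *ob/ob* GRmKO, a log2 difference between genotypes of -0.95 for lean and -1.34 for *ob/ob* mice. Transcripts that lack the exon and intact transcripts of other cells cannot be told apart in these counts. Myofibre markers were abundant in every library (6 of 6 detected, summed level between 71596 and 108911 CPM). The lean GRf/f library stood apart from the others in some genes known to follow time of day or cell stimulation: the clock output gene *Ciart* was at 13.8 in it and between 3.1 and 3.7 elsewhere, and the immediate early genes *Fos* and *Egr1* were at 10.9 and 14.5 in it, against at least 45.8 and 56.7 elsewhere. Other genes of these lists did not share this: the clock gene *Cry1* was between 14.7 and 18.1 in all 4 libraries, and the immediate early gene *Nr4a1* was high in lean GRf/f (323, against 161 to 219 elsewhere). Every lean genotype difference and every obesity difference in GRf/f mice rests on this library, and without it only the *ob/ob* genotype difference and the obesity difference in GRmKO mice remain. Adipocyte markers (*Adipoq*, *Plin1*, *Cidec*, *Lep* and *Cfd*, none at 0) summed to 473 in lean GRf/f, 240 in lean GRmKO, 266 in *ob/ob* GRf/f and 146 in *ob/ob* GRmKO, and 5 of 5 were lower in GRmKO in both backgrounds, with median log2 differences of -0.94 and -0.77. Between *ob/ob* and lean muscle, the adipocyte markers went in opposite directions, which their sums do not show. *Cfd*, at 257 in lean GRf/f and 134 in lean GRmKO, was lower in *ob/ob* (log2 differences, -4.09 in GRf/f and -3.81 in GRmKO). *Lep* was higher (2.41 and 3.04). In each genotype, 3 of 5 adipocyte markers were lower and 1 was higher beyond counting error. Erythroid markers (5 of 5, none at 0) summed to 2146 and 1976 in the lean libraries and to 1011 and 934 in the *ob/ob* libraries. In such bulk tissue, fewer cells of a type and less RNA per cell cannot be told apart.

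In lean muscle, all 10 target genes were lower in GRmKO than in GRf/f mice, with log2 differences between -2.01 and -0.22. *Fkbp5*, *Zbtb16* and *Tsc22d3* were at least 2-fold lower, which is 3 of 10 against 2.37% of all genes (2 of 10, without *Tsc22d3*, under 3 of the 4 other scalings tried), and 0 of 10 were at least 2-fold higher, against 2.34%. The difference was beyond counting error and downward for 10 of 10 genes, against 21.2% of all genes, and upward for 0 of 10, against 18.3%. The median log2 difference of the 10 genes was -0.55, and that of all genes was -0.01.

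In *ob/ob* muscle, the same comparison gave a mixed picture. *Fkbp5* alone was at least 2-fold lower in GRmKO, which is 1 of 10 against 3.10% of all genes, and 0 were at least 2-fold higher, against 2.78%. Beyond counting error, 6 genes were lower (*Fkbp5*, *Pik3r1*, *Zbtb16*, *Klf9*, *Mt1* and *Tsc22d3*), against 23.6% of all genes. *Cdkn1a*, *Mt2* and *Errfi1* were higher, that is 3 of 10 against 23.0% of all genes, and *Sgk1* was within counting error. The median over the 10 genes was -0.17. Besides the adipocyte markers, 5 of 5 fibroblast markers (median, -0.59) were lower beyond counting error in *ob/ob* GRmKO. Of the macrophage and leukocyte markers, 5 of 5 were below 0 (median, -0.27), 3 of them beyond counting error. Both lists had positive medians in lean mice (0.24 and 0.31). Endothelial (5 of 5; median, -0.10) and satellite cell markers (3 of 3; median, -0.24) were also below 0, with lean medians of 0.19 and 0.58. Of these, only 2 of 5 endothelial and 1 of 3 satellite cell markers were lower beyond counting error. Erythroid markers were below 0 for 4 of 5 (median, -0.10; lean median, -0.16), with 3 lower and 1 higher beyond counting error. Of the myofibre markers, 4 of 6 were above 0 (median, 0.20; lean median, -0.15). None of these markers was at 0. Fibroblast markers summed to 3842 in lean GRf/f, 4113 in lean GRmKO, 7280 in *ob/ob* GRf/f and 4341 in *ob/ob* GRmKO, and macrophage and leukocyte markers to 308, 393, 217 and 168. The part of these cell types in the genotype differences was not tested.

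**Figure D1:**
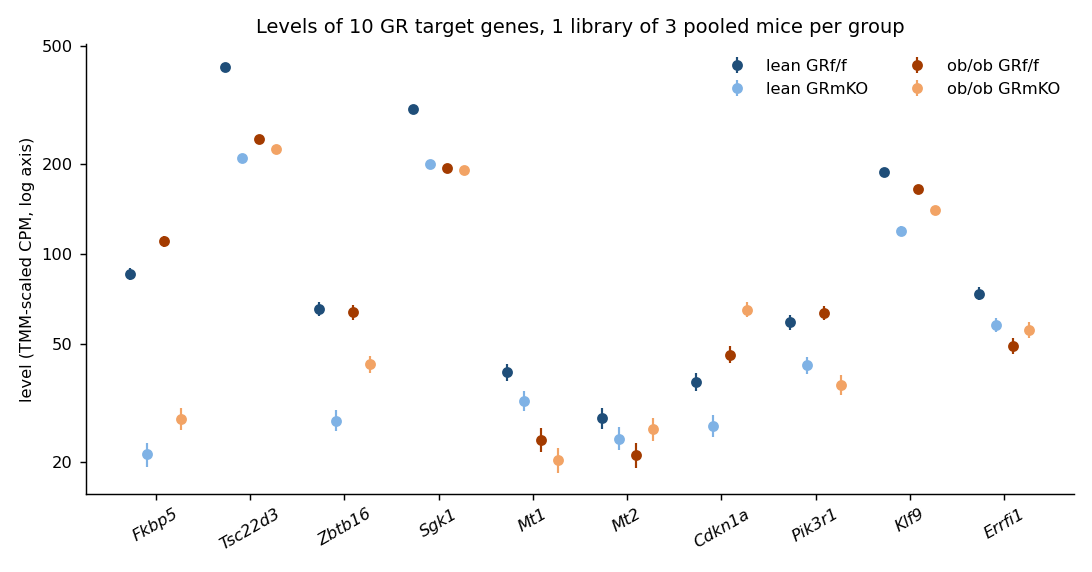
Level of each target gene (TMM-scaled CPM, logarithmic axis) in the 4 libraries, 1 library of 3 pooled mice per group; bars are 95% Poisson intervals of the count. For *Fkbp5*, both GRf/f libraries lie far above both GRmKO libraries, whereas for *Tsc22d3* and *Sgk1* the lean GRf/f library alone is high.

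*Fkbp5* (chr17:28399094-28517527, minus strand) encodes FKBP51, a co-chaperone that lowers the affinity of GR for its hormone and so closes a feedback loop. It was at 85.6 (81.7 to 89.5) in lean GRf/f, 21.2 (19.3 to 23.2) in lean GRmKO, 110 (106 to 115) in *ob/ob* GRf/f and 28.0 (25.7 to 30.4) in *ob/ob* GRmKO. Both GRf/f libraries were high and both GRmKO libraries were low, with no overlap of the intervals. *Fkbp5* was 4.03-fold lower in lean GRmKO (log2 difference, -2.01; interval, -2.16 to -1.86) and 3.94-fold lower in *ob/ob* GRmKO mice (-1.98; -2.12 to -1.84). The *ob/ob* difference minus the lean difference was 0.03 (-0.17 to 0.23), the smallest shift among the 10 genes. Obesity went with a higher level in both genotypes, by 0.37 in GRf/f and 0.40 in GRmKO. The adipocyte markers, which were also lower in both GRmKO libraries, gave genotype differences between -1.44 and -0.80 in lean mice and between -1.43 and -0.65 on the obese background. Their part in the *Fkbp5* difference was not tested.

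Transcriptional regulators made up 3 of the 10 genes. *Tsc22d3* (chrX:140539528-140600659, minus strand) encodes GILZ, a leucine zipper protein that mediates part of the anti-inflammatory action of glucocorticoids. It was at 424 in lean GRf/f, 210 in lean GRmKO, 244 in *ob/ob* GRf/f and 226 in *ob/ob* GRmKO. The lean GRf/f library was high, and the other libraries lay within a narrow range. The genotype difference was -1.02 (-1.07 to -0.96) in lean and -0.11 (-0.17 to -0.05) in *ob/ob* mice, a shift of 0.90 (0.83 to 0.98). The lean difference fell short of 2-fold with library total alone (-0.96), with a total without the 50 most abundant genes (-0.97) and with upper quartile factors (-0.99).

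*Zbtb16* (chr9:48654297-48836222, minus strand) encodes PLZF, a zinc finger repressor that is strongly induced by glucocorticoids in many cell types. Its levels were 65.4 in lean GRf/f, 27.5 in lean GRmKO, 63.6 in *ob/ob* GRf/f and 42.5 in *ob/ob* GRmKO. Both GRf/f libraries were high and did not differ beyond counting error, and lean GRmKO was the lowest. The genotype difference was -1.25 (-1.39 to -1.11) in lean and -0.58 (-0.71 to -0.45) in *ob/ob* mice, so that the *ob/ob* difference was 0.67 (0.48 to 0.85) nearer to 0.

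*Klf9* (chr19:23141226-23168134, plus strand) encodes a Krüppel-like factor that is an immediate GR target and a modulator of the circadian clock. It was at 189 in lean GRf/f, 120 in lean GRmKO, 165 in *ob/ob* GRf/f and 140 in *ob/ob* GRmKO, and its libraries were ordered as those of *Tsc22d3* and *Zbtb16*. The genotype difference was -0.66 (-0.73 to -0.59) in lean and -0.24 (-0.31 to -0.16) in *ob/ob* mice. All 3 regulators thus showed a narrower genotype difference in *ob/ob* than in lean muscle. A list of 13 clock genes had a median difference of -0.02 in the lean comparison. Of these, *Per2* and *Ciart* (2 of 13, against 2.37% of all genes) were at least 2-fold lower in lean GRmKO. *Npas2* (1 of 13, against 2.34%) was at least 2-fold higher there. In *ob/ob* mice, 0 of the 13 were past 2-fold either way, near the shares of all genes (3.10% lower and 2.78% higher). The part of the clock in these differences was not tested.

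**Figure D2:**
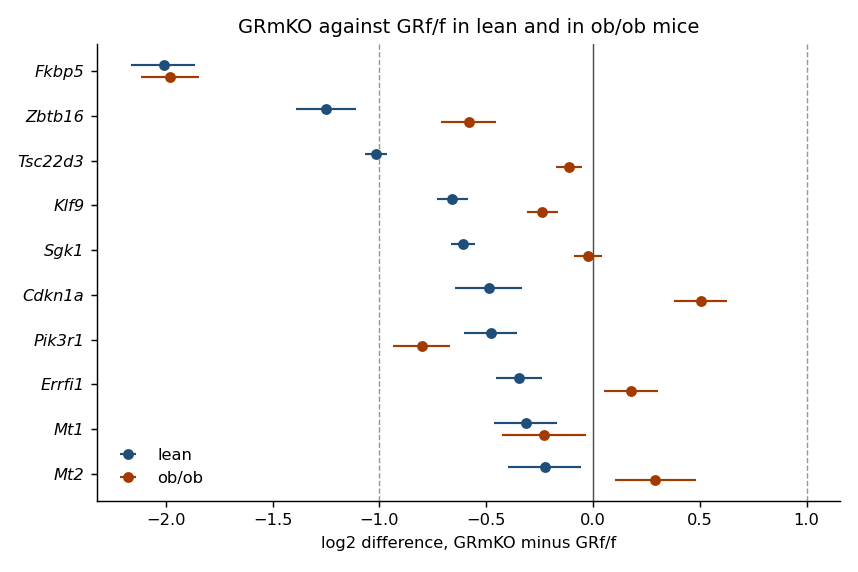
Log2 difference between GRmKO and GRf/f for each target gene, in lean (blue) and *ob/ob* (orange) mice; bars are 95% counting intervals and dashed lines mark 2-fold. All 10 lean values lie below 0, and in *ob/ob* mice *Cdkn1a*, *Mt2* and *Errfi1* lie above 0.

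The remaining signalling genes act in the insulin and growth factor pathways. *Sgk1* (chr10:21882184-21999903, plus strand), whose GRE is printed above, encodes a serum- and glucocorticoid-induced kinase related to Akt. It was at 307 in lean GRf/f, 201 in lean GRmKO, 195 in *ob/ob* GRf/f and 191 in *ob/ob* GRmKO. As for *Tsc22d3*, the lean GRf/f library was high, and *ob/ob* GRf/f did not differ beyond counting error from either GRmKO library. The genotype difference was -0.61 (-0.66 to -0.55) in lean and -0.02 (-0.09 to 0.04) in *ob/ob* mice.

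*Pik3r1* (chr13:101680563-101768217, minus strand) encodes the p85α regulatory subunit of PI3-kinase, which dampens insulin signalling when in excess of the catalytic subunit. It was at 58.9 in lean GRf/f, 42.2 in lean GRmKO, 63.2 in *ob/ob* GRf/f and 36.3 in *ob/ob* GRmKO. Both GRf/f libraries were high and did not differ beyond counting error, and *ob/ob* GRmKO was the lowest. Its genotype difference was -0.48 (-0.60 to -0.35) in lean and -0.80 (-0.94 to -0.67) in *ob/ob* mice, and *Pik3r1* was the only one of the 10 genes for which the *ob/ob* difference was the more negative one, with a shift of -0.32 (-0.50 to -0.14).

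*Errfi1* (chr4:150853919-150868892, plus strand) encodes MIG6, an inhibitor of the EGF receptor. It was at 73.5 in lean GRf/f, 57.8 in lean GRmKO, 49.1 in *ob/ob* GRf/f and 55.6 in *ob/ob* GRmKO. The lean GRf/f library was high, *ob/ob* GRf/f was the lowest, and both GRmKO libraries lay between them within counting error of each other. The genotype difference was -0.35 (-0.45 to -0.24) in lean and 0.18 (0.05 to 0.31) in *ob/ob* mice.

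*Cdkn1a* (chr17:29090976-29100727, plus strand) encodes p21, an inhibitor of cyclin-dependent kinases that answers to p53 as well as to GR. It was at 37.0 in lean GRf/f, 26.4 in lean GRmKO, 45.8 in *ob/ob* GRf/f and 65.0 in *ob/ob* GRmKO. Lean GRmKO was the lowest library and *ob/ob* GRmKO the highest, so both GRmKO libraries lay outside the range of both GRf/f libraries, on opposite sides. The genotype difference was -0.49 (-0.65 to -0.33) in lean and 0.50 (0.38 to 0.63) in *ob/ob* mice, a shift of 0.99 (0.79 to 1.19) and the widest among the 10 genes. Of 8 other p53 targets, 0 were past 2-fold in either genotype comparison. This is near the shares of all genes past 2-fold either way, 4.71% for lean and 5.88% for *ob/ob* mice. The median differences of the 8 were 0.12 and 0.09. The shift from lean to *ob/ob* mice ranged among them from -0.30 (-0.64 to 0.05) for *Bax* to 0.40 (0.23 to 0.58) for *Mdm2*. Those shifts that left counting error were all upward, for *Mdm2*, *Trp53inp1* (0.30), *Ccng1* (0.27) and *Phlda3* (0.12). *Trp53inp1* was lower in GRmKO in both backgrounds (-0.66 in lean and -0.35 in *ob/ob*), and *Ccng1* was higher in both (0.17 and 0.44). *Mdm2* was at -0.06 and 0.35, and *Phlda3* at -0.03 and 0.09. The part of the p53 pathway in the *Cdkn1a* values was not tested. A non-coding transcript annotated to overlap *Cdkn1a* was outside the protein-coding reference, so reads from it cannot be told apart from those of *Cdkn1a*.

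The metallothioneins *Mt1* (chr8:94179082-94180327, plus strand) and *Mt2* (chr8:94172664-94173568, plus strand) are neighbours that encode small cysteine-rich proteins binding zinc and copper, and they answer to metals as well as to glucocorticoids. Their listed transcripts shared no run of 31 bases. *Mt1* was at 40.0 in lean GRf/f, 32.1 in lean GRmKO, 23.8 in *ob/ob* GRf/f and 20.3 in *ob/ob* GRmKO, so both lean libraries were above both *ob/ob* libraries. The *Mt1* genotype difference was similar in lean (-0.32; -0.46 to -0.17) and *ob/ob* mice (-0.23; -0.43 to -0.03), and their difference, 0.09, had an interval from -0.15 to 0.33. *Mt2* was at 28.0 in lean GRf/f, 24.0 in lean GRmKO, 21.1 in *ob/ob* GRf/f and 25.8 in *ob/ob* GRmKO, and no library differed beyond counting error from the next in order. The *Mt2* genotype difference was -0.22 (-0.40 to -0.05) in lean and 0.29 (0.10 to 0.48) in *ob/ob* mice. Of 6 other metal response genes, the zinc exporter *Slc30a2* was at least 2-fold lower in GRmKO in both backgrounds (9.0, 3.3, 7.3 and 2.9 in the order of groups above), and the metal sensor *Mtf1* in *ob/ob* mice (18.5, 14.8, 22.9 and 9.5). That is 1 of 6 in lean mice, against 2.37% of all genes, and 2 of 6 in *ob/ob* mice, against 3.10%. An antisense transcript overlaps *Mt2*, and since strand was not stated for the quantification, its reads cannot be told apart from those of *Mt2*.

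The *ob/ob* groups were next set against the lean groups within each genotype, which asks whether obesity without added hormone moves the same genes. In GRf/f mice, 0 of 10 genes were at least 2-fold lower, against 3.74% of all genes, and 0 were at least 2-fold higher, against 3.36%. Beyond counting error, 6 were lower (*Tsc22d3* by 0.80, *Mt1* by 0.75, *Sgk1* by 0.66, *Errfi1* by 0.58, *Mt2* by 0.41 and *Klf9* by 0.20 on the log2 scale), against 25.4% of all genes. *Fkbp5* and *Cdkn1a* were higher, by 0.37 and 0.31, that is 2 of 10 against 28.0%, and *Zbtb16* (-0.04) and *Pik3r1* (0.10) were within counting error. The median was -0.30. Marker lists also differed between *ob/ob* and lean muscle. In GRf/f mice, 5 of 5 erythroid markers were at least 2-fold lower (median, -1.11), and the macrophage and leukocyte list had a median of -0.40. Of the myofibre markers, 2 of 6 (*Myh2* and *Ttn*) were at least 2-fold higher (median of the 6 genes, 0.67). Fibroblast markers were split, with 3 of 5 higher and 2 of 5 lower beyond counting error (median, 0.20), and *Col1a1* was higher by 1.80. In GRmKO mice, 4 of 5 erythroid and 4 of 5 macrophage and leukocyte markers were at least 2-fold lower (medians, -1.04 and -1.25), and 4 of 6 myofibre markers were at least 2-fold higher (median, 1.06). Of the fibroblast markers, 4 of 5 were lower beyond counting error there (median, -0.65), and *Col1a1* alone was higher (1.06). The part of these cell types in the values of the target genes was not tested.

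In GRmKO mice, 0 genes were at least 2-fold lower in *ob/ob*, against 5.43% of all genes, and *Cdkn1a* was at least 2-fold higher (2.46-fold; log2 difference, 1.30; 1.16 to 1.45), that is 1 of 10 against 3.55%. *Sgk1*, *Mt1* and *Pik3r1* were lower beyond counting error (-0.07, -0.66 and -0.22), 3 of 10 against 28.2% of all genes. *Cdkn1a*, *Zbtb16* (0.63), *Fkbp5* (0.40), *Klf9* (0.22) and *Tsc22d3* (0.10) were higher, 5 of 10 against 30.4%. The *Tsc22d3* value turned to -0.10 and the median of the 10 genes turned from 0.10 to -0.10 with scaling by library total alone, a scaling that also moved the median of all genes from 0.00 to -0.20 in this comparison and to -0.11 in the GRf/f one. Under that scaling *Klf9* came to 0.02, within counting error, and *Fkbp5* to 0.19, and 3 of the 10 genes were higher and 5 lower beyond counting error, against 17.2% and 45.7% of all genes. Such a change of scaling shifts every gene of a library by the same amount. *Mt1* and *Sgk1* were lower in *ob/ob* in both genotypes, *Sgk1* by far less in GRmKO than in GRf/f mice. With DESeq2 size factors, the *Sgk1* value in GRmKO mice (-0.06) was within counting error.

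**Figure D3:**
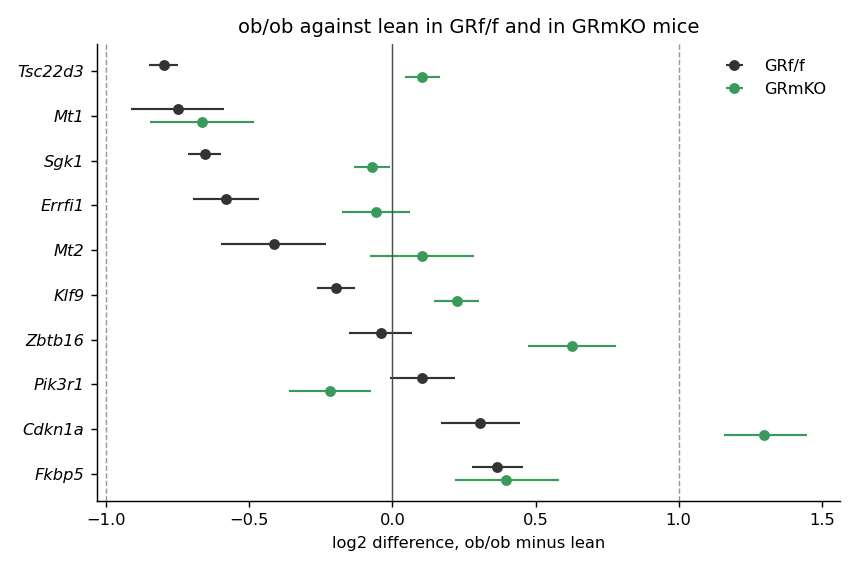
Log2 difference between *ob/ob* and lean for each target gene, in GRf/f (black) and GRmKO (green) mice; bars are 95% counting intervals and dashed lines mark 2-fold. *Tsc22d3*, *Sgk1* and *Errfi1* lie well below 0 in GRf/f and near 0 in GRmKO mice, where the sign of the *Tsc22d3* value (0.10) turned with library total scaling (-0.10), and *Cdkn1a* in GRmKO mice lies beyond 2-fold.

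The genotype and obesity comparisons share libraries, so their values are set side by side and not as independent evidence. The lean GRf/f library held the highest level for 7 of the 10 genes, against 23.3% of all genes, and the lowest for 0. *Fkbp5* and *Pik3r1* were highest in *ob/ob* GRf/f and *Cdkn1a* in *ob/ob* GRmKO. Lean GRmKO held the lowest level for 5 genes, against 26.5% of all genes. The counts for *ob/ob* GRmKO (3 of 10) and *ob/ob* GRf/f (2 of 10) were about the shares of all genes, 29.1% and 22.5%. The *ob/ob* genotype difference was above the lean one for 9 of 10 genes, whereas 52.3% of all genes had a positive value. The median shift was 0.52 over the 10 genes and 0.02 over all genes. Among the 9, the shifts of *Fkbp5* (0.03) and *Mt1* (0.09) were within counting error. The 10 genes also spanned a wider range than most: the highest library exceeded the lowest by a median of 1.86-fold, against 1.44-fold over all genes.

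**Figure D4:**
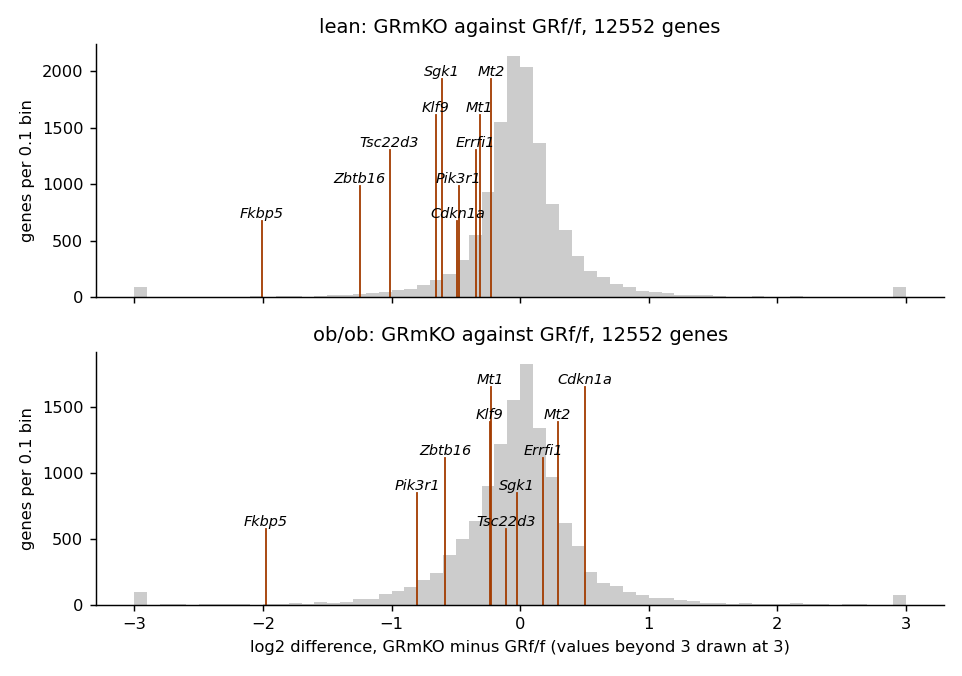
Distribution of the log2 difference between GRmKO and GRf/f over 12552 genes (gray bars, genes per bin of 0.1) in lean (top) and *ob/ob* mice (bottom), with the 10 target genes as labelled lines whose heights carry no value. The 10 genes all lie on the left side in lean mice, and in *ob/ob* mice *Fkbp5* stays at the far left (-1.98) while most others lie within the central mass.

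A wider set of 20 genes known to be induced by glucocorticoids was placed beside the 10. In lean mice, *Gadd45g*, *Per1*, *Ddit4*, *Hif3a*, *Glul* and *Cebpb* (6 of 20, against 2.37% of all genes) were at least 2-fold lower in GRmKO. None (0 of 20, against 2.34%) was at least 2-fold higher, and the median of the 20 genes was -0.52. Beyond counting error, 15 of 20 were lower, against 21.2% of all genes, and 4 were higher, against 18.3%. In *ob/ob* mice, *Gadd45g* and *Hif3a* (2 of 20, against 3.10%) were at least 2-fold lower, and *Pdk4* (1 of 20, against 2.78%) was at least 2-fold higher. Beyond counting error, 12 of 20 were lower there, against 23.6%, and 3 were higher, against 23.0%, and the median was -0.20. The growth arrest gene *Gadd45g* was at 106 in lean GRf/f, 20.8 in lean GRmKO, 29.1 in *ob/ob* GRf/f and 10.2 in *ob/ob* GRmKO, and differed between genotypes in both backgrounds (-2.35 and -1.51). *Ddit4*, an mTORC1 inhibitor, was at 89.6, 34.5, 27.1 and 25.6 in that order, the pattern of *Tsc22d3* and *Sgk1*, in which lean GRf/f alone is high. Glutamine synthetase, encoded by *Glul*, was at 630, 278, 339 and 188. *Pdk4*, the kinase that holds back pyruvate oxidation, was at 387, 324, 181 and 399, so that *ob/ob* GRf/f alone was low. Between *ob/ob* and lean, 4 of the 20 were at least 2-fold lower in GRf/f mice (*Ddit4*, *Cebpd*, *Pdk4* and *Gadd45g*; median of the 20 genes, -0.45), against 3.74% of all genes. In GRmKO mice this held for *Gadd45g* alone (median, -0.04), 1 of 20 against 5.43%, about the share of all genes.

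Genes of the same families as the 10 were listed for comparison. Of 16 such relatives, 14 passed the minimum level, and 0 of the 14 were past 2-fold in any of the 4 comparisons. The shares of all genes past 2-fold either way were 4.71% and 5.88% for the genotype comparisons in lean and *ob/ob* mice. They were 7.10% and 8.98% for the obesity comparisons in GRf/f and GRmKO mice, so 0 of 14 is near the background. The median genotype differences of the 14 were -0.01 in both backgrounds. The most negative of them was *Klf13*, at -0.68 for lean and -0.39 for *ob/ob* mice. The metallothionein *Mt3* gave 0.87 and 0.66, and the p21 relative *Cdkn1c* gave 0.11 and 0.87. Among 14 genes for the receptor, hormone-activating enzymes, chaperones and cofactors, 13 passed the minimum level. Of the 13, 0 were past 2-fold in lean mice, near the share of all genes (4.71%). *Nr3c1* alone was past 2-fold in *ob/ob* mice, 1 of 13 against 5.88%. The mineralocorticoid receptor gene *Nr3c2*, whose product also binds corticosterone, was at 9.6 in lean GRf/f, 8.0 in lean GRmKO, 11.2 in *ob/ob* GRf/f and 11.6 in *ob/ob* GRmKO, with genotype differences of -0.26 and 0.05 that did not leave counting error. *Hsd11b1*, which regenerates active hormone, was at 15.1, 15.4, 9.7 and 5.5 in the same order.

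**Figure D5:**
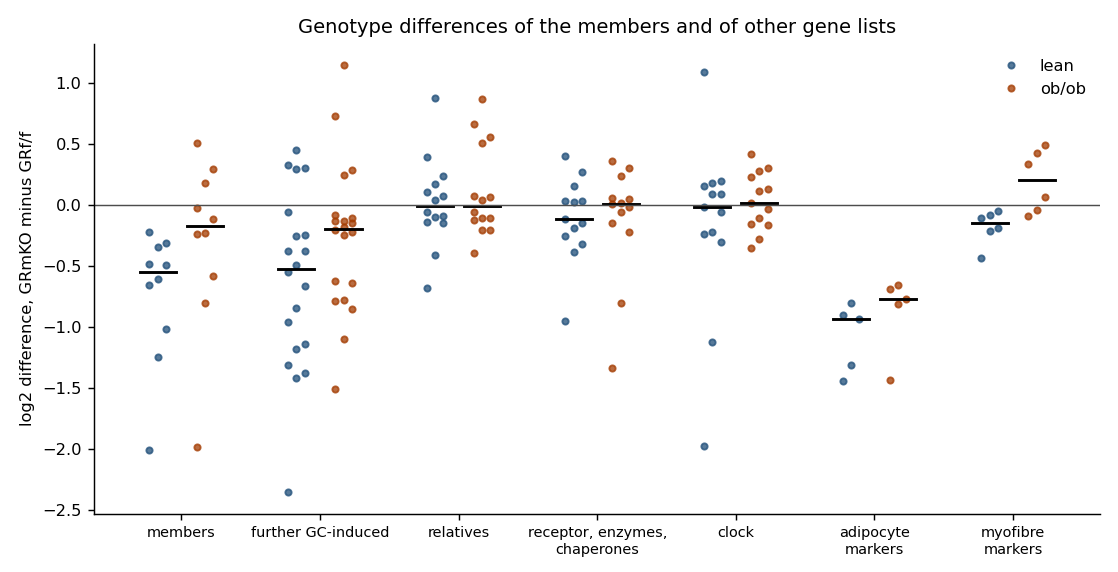
Log2 difference between GRmKO and GRf/f for the 10 target genes (members) and for genes of 6 other lists, in lean (blue) and *ob/ob* (orange) mice; each point is a gene with a mean of at least 1 CPM and black bars are list medians. The 10 genes and the further glucocorticoid-induced genes have medians of -0.55 and -0.52 in lean mice, and the relatives of the 10 have medians of -0.01 in both backgrounds.

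Per kilobase of the listed transcript, the most abundant of the 10 in lean GRf/f was *Tsc22d3* (4632 expected counts per kilobase), followed by *Sgk1* (2690), *Mt1* (1569), *Mt2* (1182) and *Klf9* (908). *Pik3r1* was the least abundant (178), so the wide genotype difference of *Fkbp5* (520) was that of a gene in the middle of the range. Other genes shared at most 0.669% of the 31-base runs of any of the 10 transcripts.

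The pattern of each gene over the 4 libraries was also matched to all genes with a mean of at least 5 CPM, by the Euclidean distance of log2 levels centred on each gene. The genes nearest to *Fkbp5* were *Hmga2* (distance, 0.17), *Tmem52* (0.26) and *Syt12* (0.33), so no gene matched it as closely as the nearest matched the other genes. Those nearest to *Tsc22d3* were *Wee1* (0.08), *Per2* (0.10) and *Fam107a* (0.15), and *Per2* is a clock gene. Nearest to *Pik3r1* was *Oat* (0.02), at 161, 115, 174 and 101 in the order of groups above. The insulin receptor substrate gene *Irs2* was the third nearest to *Errfi1* (0.06). With 4 libraries such likeness is a description only. Within the 10, the closest pairs were *Mt2* with *Errfi1* (0.20), *Sgk1* with *Errfi1* (0.24) and *Tsc22d3* with *Sgk1* (0.30), and the most distant was *Fkbp5* with *Mt2* (2.11).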

How the data were processed

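The deposited values were expected counts per gene from 4 libraries, 1 per group. The authors pooled RNA of 3 mice per group, sequenced it with paired-end reads, quantified GENCODE protein-coding mouse transcripts (mm10) with Salmon v1.2.1 and summed them to genes with tximport in R v3.5.0 set to lengthScaledTPM, which corrects counts for transcript length. Where a gene name occurred more than once, the entry with most counts was retained. Library totals were between 19897754 and 20959781.

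Counts were scaled by TMM factors (edgeR 4.0.16, R 4.3.3), and 12552 of 22252 genes with a mean of at least 1 CPM were kept. Log2 differences used a pseudocount of 0.5 counts. Intervals (95%) were exact Poisson for levels, exact conditional binomial for differences and normal for the shift between backgrounds. They cover counting error only (scipy 1.17.1). They treat expected counts as read counts. The calculations were tested on simulated data. With 1 library per group no dispersion was fitted, and the NOISeq calls used in the study, which simulate technical replicates, were not repeated. A 2-fold rule was used in their place. Groups came from the sample labels, and age, sex and pooling from the study's methods.

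The 10 genes and the other lists were chosen with earlier results of these data known. Named by rule were the 10 genes, *Nr3c1*, *Nr3c2*, the 3 nearest genes per member (some are printed) and, per list and genotype comparison, at most the 4 genes with the largest ratio past 2-fold. *Glul*, *Cebpb*, *Cebpd*, *Klf13*, *Mt3*, *Cdkn1c*, *Mdm2*, *Bax*, *Trp53inp1*, *Ccng1*, *Phlda3*, *Cry1*, *Nr4a1*, *Myh2*, *Ttn*, *Col1a1*, *Adipoq*, *Cfd* and *Hsd11b1* were chosen after their values were seen. Promoters came from RefSeq and gene positions from GENCODE, both on GRCm38. Alternatives were DESeq2 1.42.0 size factors, upper quartile factors, 2 kinds of library total, a pseudocount of 5, a 1.5-fold rule, other filters on low genes and the sum of *Mt1* and *Mt2*. Counts beyond counting error under each scaling were added after seeing the data.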

Additional observations from a re-analysis of the deposited data

Results flagged for a closer look

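For 3 of the target genes, the genotype difference had opposite directions in the lean and the *ob/ob* libraries, each beyond counting error. *Cdkn1a* was lower in lean GRmKO (-0.49) and higher in *ob/ob* GRmKO (0.50), a shift of 0.99 on the log2 scale. *Mt2* went from -0.22 to 0.29, a shift of 0.52, and *Errfi1* from -0.35 to 0.18, a shift of 0.52. For 2 genes, the obesity difference had opposite directions in the GRf/f and the GRmKO libraries. *Tsc22d3* was lower in *ob/ob* GRf/f (-0.80) and higher in *ob/ob* GRmKO (0.10), a shift of 0.90. *Klf9* went from -0.20 to 0.22, a shift of 0.42. The opposite directions of the obesity difference depend on the scaling. In GRmKO mice, *Tsc22d3* was at -0.10 with library total alone and at -0.02 with a total without the 50 most abundant genes, and *Klf9* was at 0.02 with library total alone. For *Cdkn1a*, *Mt2* and *Errfi1*, the opposite genotype differences stayed beyond counting error under each scaling tried. With 1 library per group, none of these differences was tested against the spread between mice, and each of them uses the lean GRf/f library.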

How the results depend on the processing

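No paired analysis was possible because each group has 1 library, and for the same reason no library could be left out. Of the 200 log2 differences of single genes recomputed under alternatives, 176 moved by less than their counting interval, 22 moved by more, and 2 called values reversed. Both reversals were *Tsc22d3* between *ob/ob* and lean GRmKO, at -0.10 with library total alone and -0.02 with a total without the 50 most abundant genes. The median of the 10 genes in that comparison took the values -0.10 and -0.02 under the same alternatives. Library total alone also took *Klf9* in that comparison from 0.22 to 0.02, *Fkbp5* from 0.40 to 0.19, *Sgk1* from -0.07 to -0.28, *Pik3r1* from -0.22 to -0.42 and *Mt2* from 0.10 to -0.10, and *Pik3r1* in GRf/f from 0.10 to -0.01. With a 1.5-fold rule, 5 genes were lower in lean GRmKO, 2 in *ob/ob* GRmKO and 3 in *ob/ob* against lean GRf/f, with 0 higher in each. In *ob/ob* against lean GRmKO, 1 was lower and 2 were higher. The shares of all genes past 1.5-fold in either direction were 11.8%, 15.7%, 19.2% and 24.5% in these comparisons, and without a filter on low genes those past 2-fold were 18.1%, 14.8%, 19.5% and 17.9%. A change of scaling shifts every gene of a library by the same amount, and the looser rules let more genes pass by construction. Depth limits the values of these genes little, the smallest count behind a level being 396, whereas the spread between mice is unknown.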
